A study of Homo sapiens with 90 samples.

Results

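Aminoacyl-tRNA synthetases were followed in A673 cells, an established human Ewing sarcoma line, exposed for 24 h to fenbuconazole, imazalil or 2,4-D. Members were the probe sets annotated to exactly 1 gene whose symbol is that of a cytosolic synthetase, of a mitochondrial synthetase (suffix 2) or of a scaffold protein of the synthetase complex, with 1 probe set per gene, the one with the highest mean over all columns. The rule gave 37 of 19774 genes, made up of 20 cytosolic enzymes, 16 mitochondrial enzymes and the scaffold AIMP1, and it took them from 77 probe sets. The scaffolds AIMP2 and EEF1E1 were not analysed here. GARS1 and KARS1 each serve both compartments and were counted as cytosolic.

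Each synthetase joins 1 amino acid to its tRNAs, and a cell keeps a cytosolic set of enzymes and a nearly complete separate set, encoded in the nucleus, for its mitochondria. Several cytosolic enzymes sit together in the multi-synthetase complex, which AIMP1, AIMP2 and EEF1E1 hold together. When amino acids run short or the endoplasmic reticulum is stressed, kinases that phosphorylate eIF2 raise the translation of ATF4, and ATF4 raises the transcription of asparagine synthetase (ASNS), of the pseudokinase TRIB3 and of many cytosolic synthetases. EPRS1 loads both glutamate and proline, and WARS1 is also known as an interferon-induced gene.

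The groups were cells at 1 of 9 concentrations of 1 chemical, with 0.001 µM the lowest and 10 µM the highest, and cells in DMSO alone, each with 3 arrays numbered as replicates 1 to 3, which makes 30 columns per chemical and 90 in all. All cells, the controls included, were plated at 26000 per well and held in 0.2% DMSO. Fenbuconazole (a triazole) and imazalil (an imidazole) are fungicides that inhibit fungal sterol demethylase, and 2,4-D is a herbicide that mimics auxin. All cells were of 1 line, and the labels do not say whether the 3 arrays of a group came from separate cultures; the study's methods describe independent experiments on separate batches of cells.

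Values were log2 expression after normalization of each chemical's 30 columns on their own, so levels were not set across the 3 sets. In the fenbuconazole set, 6 measured Ewing sarcoma markers had mean values of 6.72 (LINGO1) to 12.13 (CD99), while 5 hepatocyte markers lay at 2.40 to 2.94 and 5 markers of MCF7 breast cancer cells at 2.41 (TFF1) to 4.46 (GATA3), beside array medians of 2.76 to 2.83. Control columns that the labels call common behaved in different ways. After the set mean of each probe set was subtracted, the controls of imazalil and of 2,4-D with 1 number correlated at 0.87 to 0.88 and are taken as the same 3 arrays, whereas the controls of fenbuconazole correlated with them at only 0.11 to 0.20. The labels give all 3 sets of controls the same run numbers, and whether those of fenbuconazole are other arrays is not known. Imazalil and 2,4-D were therefore set against the same control arrays. These are bulk samples, in which fewer cells of a type and less RNA per cell cannot be told apart.

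ATF4 acts with C/EBP proteins at a composite site, and the letters TGATGNAA or, on the other strand, TTNCATCA were sought in promoters from RefSeq (GRCh38.p14), each of 250 bases before and 50 after the start of a gene. Promoters were matched for 31 of the 37 members, not for AARS2, LARS1, TARS3, VARS1, VARS2 or YARS1. The letters were found in 7 of 16 cytosolic enzymes (AARS1, CARS1, GARS1, IARS1, MARS1, NARS1 and TARS1), in 1 of 14 mitochondrial enzymes (YARS2) and not in AIMP1, beside 1217 of all 27305 genes with such a promoter (4.46%) and 3.62% of all 35116 promoters. A match is a description of these letters and not a site of binding. The windows below are of 4 enzymes whose values differed between replicate numbers, described further on, and of the mitochondrial match. AARS1 and MARS1 differed in the 2,4-D set alone. WARS1 also differed there and had no match, while IARS1, NARS1 and TARS1 had a match and did not pass in any set. Whether the letters go with the difference was not tested. Each window is written 5′ to 3′ on the strand of the gene, with the matching letters in capitals.
CARS1, chr11:3057407-3057436, minus strand: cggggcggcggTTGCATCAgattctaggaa
GARS1, chr7:30594834-30594863, plus strand: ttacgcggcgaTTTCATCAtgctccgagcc
AARS1, chr16:70289675-70289704, minus strand: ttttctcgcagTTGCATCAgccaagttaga
MARS1, chr12:57488053-57488082, plus strand: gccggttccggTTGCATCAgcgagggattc
YARS2, chr12:32756076-32756105, minus strand: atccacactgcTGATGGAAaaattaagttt
The match began 2 bases before the annotated start in CARS1, 4 before it in MARS1 and 33 before it in GARS1, and it lay farther upstream in AARS1 and YARS2. CARS1, MARS1 and AARS1 held the same 8 letters, and YARS2 held the letters in the other orientation.

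At 10 µM fenbuconazole, most cytosolic synthetases read lower than in DMSO while mitochondrial synthetases were evenly divided, and no single member passed the test. Of 20 cytosolic enzymes, 16 were lower, with a median log2 difference of -0.11 and a range of -0.32 to 0.098. Of 16 mitochondrial enzymes, 8 were lower, with a median of -0.0065 and a range of -0.22 to 0.13. The median over all probe sets was -0.00021, and over 1 probe set per gene it was -0.0050, with 51.6% of genes lower. With limma and Benjamini-Hochberg adjustment over 54613 probe sets, 0 of 37 members and 0% of all probe sets passed an adjusted p of 0.05. At an unadjusted p under 0.05 there were 2 members of 37, MARS1 and WARS1, beside 7% of all probe sets, so this count is no higher than the background.

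MARS1, which charges methionine tRNA and so also serves the initiator, had log2 values of 9.67, 9.53 and 9.45 in fenbuconazole arrays and 9.93, 9.89 and 9.80 in DMSO arrays. The groups did not overlap, and the difference was -0.32 ± 0.12 (SE), adjusted p = 0.56. WARS1, the tryptophan enzyme, had 8.49, 8.38 and 8.54 in fenbuconazole arrays and 8.68, 8.86 and 8.67 in DMSO arrays, again without overlap and with a difference of -0.26 ± 0.11 (SE), adjusted p = 0.62. FARSA, the catalytic subunit of the phenylalanine enzyme, had 7.51, 7.51 and 7.46 in fenbuconazole arrays and 7.63, 7.74 and 7.67 in DMSO arrays and differed by -0.18 ± 0.11 (SE), adjusted p = 0.77. The FARSA arrays at the other 8 concentrations had a median of 7.51, so that its 3 DMSO arrays stood high against the whole set, and against the other 8 concentrations its difference was 0.020 ± 0.083, with the sign turned. CARS1, the cysteine enzyme, had 10.07, 10.30 and 9.97 in fenbuconazole arrays and 10.32, 10.46 and 10.13 in DMSO arrays, which overlap, and differed by -0.19 ± 0.13 (SE), adjusted p = 0.81.

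Among the mitochondrial enzymes, LARS2 for leucine had 6.16, 6.07 and 5.96 in fenbuconazole arrays and 6.24, 6.29 and 6.24 in DMSO arrays, without overlap, and differed by -0.20 ± 0.12 (SE), adjusted p = 0.77. VARS2 for valine had 7.03, 7.29 and 7.16 in fenbuconazole arrays and 7.48, 7.50 and 7.17 in DMSO arrays, with DMSO replicate 3 among the fenbuconazole values, and differed by -0.22 ± 0.11 (SE), adjusted p = 0.73. The scaffold AIMP1 had 8.89, 8.98 and 8.95 in fenbuconazole arrays and 8.97, 8.75 and 8.74 in DMSO arrays and differed by 0.12 ± 0.090 (SE), adjusted p = 0.84. Values of 5 of 37 members, FARSA, LARS2, MARS1, VARS1 and WARS1, lay wholly below DMSO, and 0 lay wholly above it, beside 5.76% and 5.39% of all probe sets. VARS1, which charges valine tRNA and binds elongation factor 1, was the smallest of these, at -0.071 ± 0.11 (SE), adjusted p = 0.94.

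**Figure D1:**
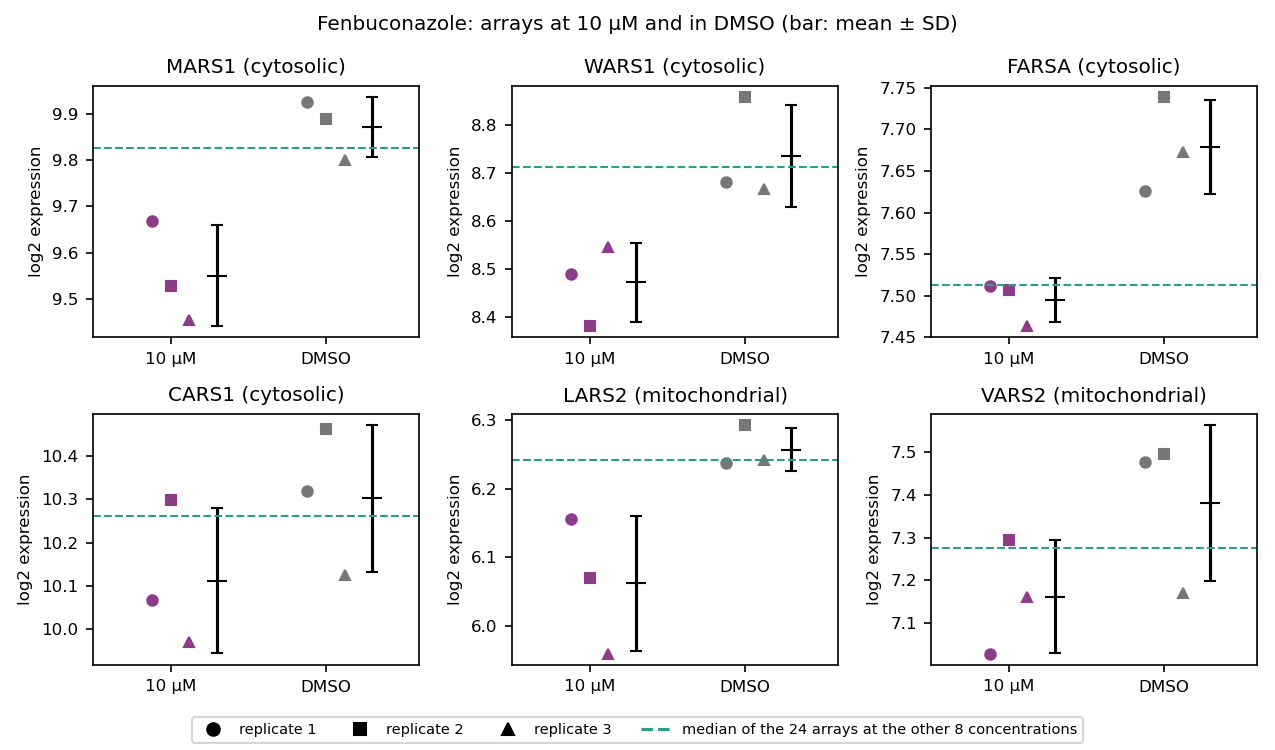
Log2 expression of the 6 members with the largest difference at 10 µM fenbuconazole, for the 3 arrays at 10 µM (left) and the 3 DMSO arrays (right), with the mean and SD beside them; circles, squares and triangles are replicates 1, 2 and 3. MARS1, WARS1, FARSA and LARS2 do not overlap, and the dashed median of the other 8 concentrations lies close to the 10 µM values for FARSA and close to the DMSO values for MARS1, WARS1 and LARS2.

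The enzymes of the multi-synthetase complex lay on both sides of 0 at 10 µM fenbuconazole. Of 7 complex enzymes, 3 were lower than in DMSO with a median of 0.016, which spans MARS1 and EPRS1 at 0.098 ± 0.15. All 13 of 13 cytosolic enzymes outside the complex were lower with a median of -0.12. Against the other 8 concentrations this split was less clear. Within replicate numbers 1 to 3, 5, 4 and 4 of the 7 were lower there, with medians of -0.032, -0.047 and -0.092. Outside the complex 10, 11 and 12 of the 13 were lower, with medians of -0.097, -0.12 and -0.076. EPRS1 had 10.05, 9.84 and 10.15 in fenbuconazole arrays and 9.71, 10.17 and 9.86 in DMSO arrays, with wide spread in both groups. KARS1, the lysine enzyme, differed by 0.040 ± 0.090 (SE), adjusted p = 0.96, and GARS1, the glycine enzyme, by -0.15 ± 0.13 (SE), adjusted p = 0.87. Of 12 cytosolic enzymes known as ATF4 targets, 11 were lower with a median of -0.12, and of the other 8, 5 with a median of -0.037. WARS2, the mitochondrial tryptophan enzyme, differed by 0.12 ± 0.13 (SE), adjusted p = 0.89, beside the lower values of WARS1.

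Set against the 24 arrays at the other 8 concentrations, which leaves out the DMSO columns, the counts by compartment were much alike. At 10 µM, 17 of 20 cytosolic enzymes were lower with a median of -0.084, and 8 of 16 mitochondrial enzymes with a median of -0.00086. WARS1 differed by -0.28 ± 0.079 with adjusted p = 0.44 and MARS1 by -0.27 ± 0.088 with adjusted p = 0.59. The test passed 0 of 37 members and 0.00366% of all probe sets, and an unadjusted p under 0.05 was met by 5 members (LARS1, LARS2, MARS1, TARS1 and WARS1) beside 5.85% of all probe sets. Within each replicate number, 10 µM minus DMSO gave cytosolic medians of -0.17, -0.053 and -0.11 for numbers 1 to 3, and mitochondrial medians of -0.14, 0.10 and 0.075. The division between compartments also rested on the choice of probe set. With the mean over every probe set of a gene, the cytosolic median was -0.051 and the mitochondrial median was -0.088, which turns their order.

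At 10 µM imazalil the cytosolic enzymes leaned lower by smaller amounts. Of 20 cytosolic enzymes, 18 were lower with a median log2 difference of -0.046, and of 16 mitochondrial enzymes, 8 were lower with a median of -0.0043, beside 0.00033 over 1 probe set per gene. WARS1 had 9.06, 9.37 and 9.25 in imazalil arrays and 9.38, 9.46 and 9.28 in DMSO arrays, which overlap, and differed by -0.14 ± 0.093 (SE), adjusted p = 1.00. CARS1 had 10.56, 10.82 and 10.53 in imazalil arrays and 10.77, 10.85 and 10.65 in DMSO arrays and differed by -0.12 ± 0.11 (SE), adjusted p = 1.00. In both genes the array of replicate 2 was the highest at 10 µM and in DMSO.

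MARS2, the mitochondrial methionine enzyme, had 5.78, 5.82 and 5.64 in imazalil arrays and 5.98, 5.78 and 5.92 in DMSO arrays and differed by -0.14 ± 0.12 (SE), adjusted p = 1.00. NARS2, for mitochondrial asparagine tRNA, had 9.14, 9.13 and 9.22 in imazalil arrays and 9.08, 9.04 and 9.03 in DMSO arrays, wholly above DMSO, with a difference of 0.12 ± 0.069 (SE), adjusted p = 1.00. Besides NARS2, QARS1 and YARS1 lay wholly below DMSO, so 2 of 37 members were lower and 1 higher without overlap, beside 3.66% and 4.31% of all probe sets. The limma test passed 0 of 37 members and 0% of all probe sets, and an unadjusted p under 0.05 was met by 0 members beside 4.75% of all probe sets. Against the other 8 concentrations, 17 of 20 cytosolic enzymes were lower (median -0.041) and 9 of 16 mitochondrial enzymes (median -0.0088), with 0 members and 0.011% of all probe sets past the adjusted threshold and 2 members, MARS2 and WARS1, beside 5.58% of all probe sets at an unadjusted p under 0.05. The 13 cytosolic enzymes outside the complex had a median of -0.059 against DMSO, beside -0.028 for the 7 inside it, and the 12 ATF4 targets had -0.051, beside -0.044 for the other 8. Against DMSO within replicate numbers 1 to 3, cytosolic medians were -0.13, -0.037 and -0.032, and mitochondrial medians were -0.073, 0.054 and -0.0062. Against the other 8 concentrations the cytosolic medians were -0.0098, -0.028 and -0.020, and the mitochondrial medians were -0.026, -9.1e-05 and -0.045. There the mitochondrial median was the lower in numbers 1 and 3.

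At 10 µM 2,4-D the cytosolic and mitochondrial medians lay on either side of 0. Of 20 cytosolic enzymes, 13 were lower with a median of -0.0092, and of 16 mitochondrial enzymes, 5 with a median of 0.026, beside -0.0072 over 1 probe set per gene. VARS1 had 7.96, 7.90 and 7.97 in 2,4-D arrays and 8.22, 8.03 and 7.92 in DMSO arrays and differed by -0.11 ± 0.10 (SE), adjusted p = 1.00. FARS2, for mitochondrial phenylalanine tRNA, had 7.25, 7.53 and 7.05 in 2,4-D arrays and 7.35, 7.17 and 7.0 in DMSO arrays, with only replicate 2 above every DMSO array, and differed by 0.11 ± 0.13 (SE), adjusted p = 1.00. Against the other 8 concentrations the FARS2 difference was -0.11 ± 0.094, with the sign turned, and without replicate 2 it was -0.022 against DMSO.

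For 2,4-D, 0 of 37 members had values wholly below or wholly above those in DMSO, beside 3.8% lower and 3.22% higher among all probe sets. In limma, 0 of 37 members passed against DMSO (0% of all probe sets) and against the other 8 concentrations (0.00183%). At an unadjusted p under 0.05 there were 0 members beside 3.85% of all probe sets against DMSO, and 2 members, LARS1 and MARS1, beside 6.27% against the other 8 concentrations. WARS1 differed from DMSO by 0.0058 ± 0.10 (SE), adjusted p = 1.00, EPRS1 by -0.013 ± 0.14 (SE), adjusted p = 1.00 and AIMP1 by -0.014 ± 0.068 (SE), adjusted p = 1.00.

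**Figure D2:**
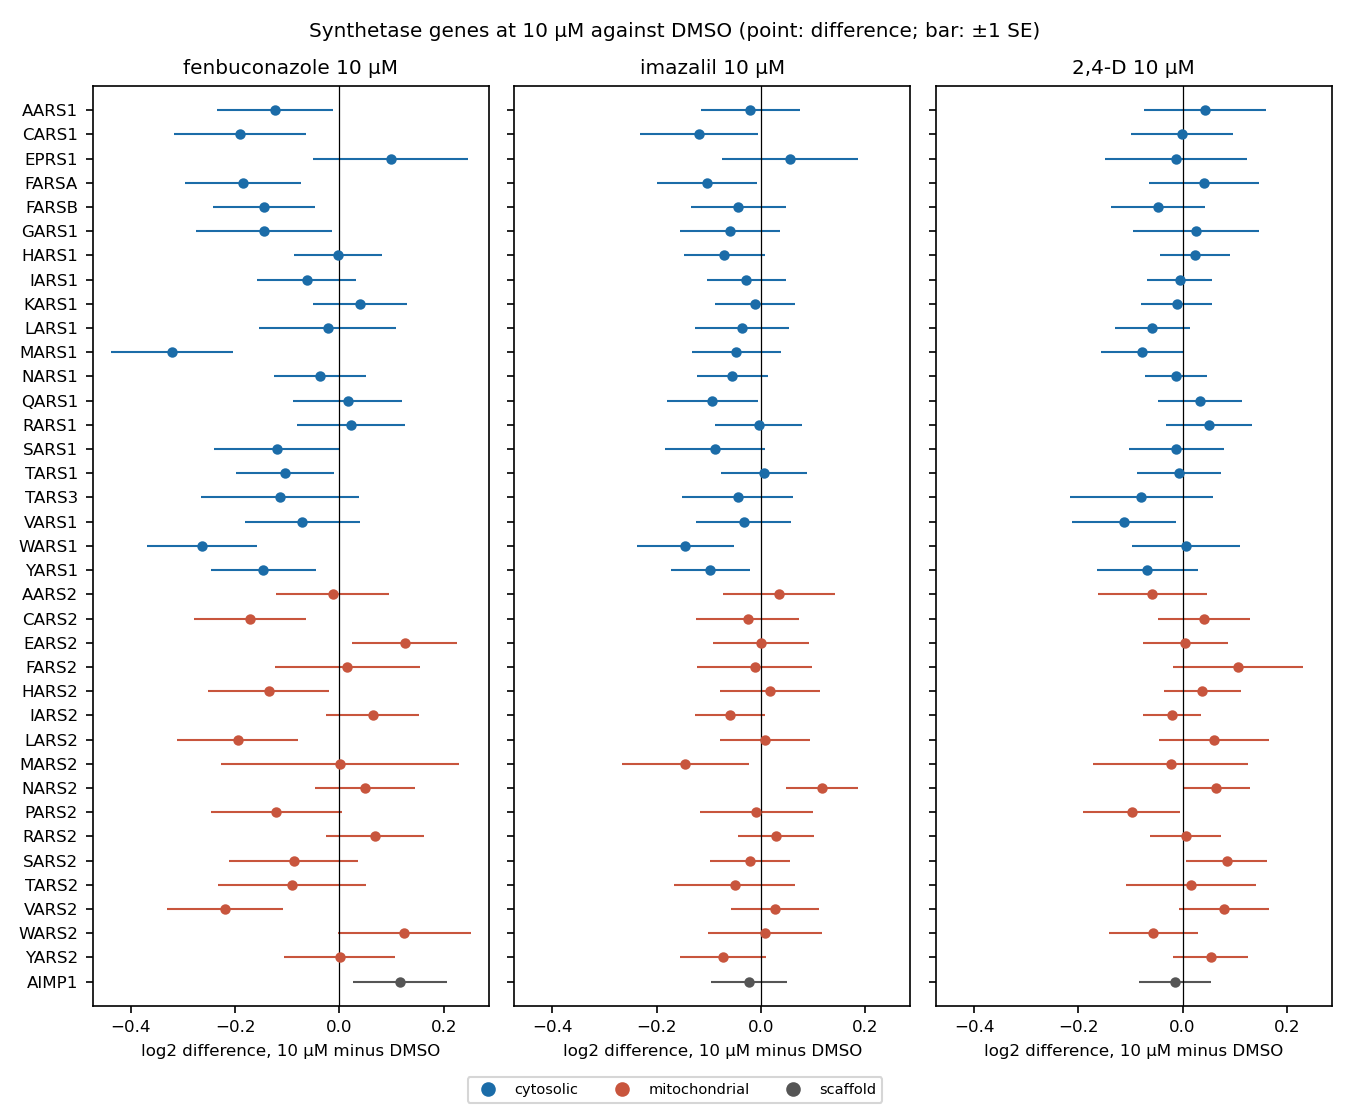
Log2 difference (10 µM minus DMSO) of all 37 members, by chemical, as points with bars of 1 SE, cytosolic enzymes above mitochondrial ones. The cytosolic points of fenbuconazole lie mostly left of 0, down to -0.32 for MARS1, and those of 2,4-D lie on both sides.

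The 3 pairs of chemicals were compared at 10 µM through the difference of their differences from the other 8 concentrations. No member passed for any of the 3 pairs after adjustment over all probe sets, of which 0.00183% passed for fenbuconazole minus 2,4-D, 0.00366% for imazalil minus 2,4-D and 0.00549% for imazalil minus fenbuconazole. For fenbuconazole minus 2,4-D, 16 of 20 cytosolic enzymes were negative with a median of -0.089, against 8 of 16 mitochondrial enzymes with a median of -0.0030. WARS1 differed by -0.26 (95% interval -0.47 to -0.057, adjusted p = 0.96) and LARS2 by -0.21 (95% interval -0.43 to -0.00044, adjusted p = 1.00). For imazalil minus 2,4-D, most enzymes of both compartments were negative, so the cytosolic enzymes did not stand apart. Cytosolic values ran from -0.17 (FARSA) to 0.097 (EPRS1) and mitochondrial values from -0.18 (MARS2) to 0.16 (AARS2). WARS1 differed by -0.14 in this pair (95% interval -0.34 to 0.068, adjusted p = 1.00). Between the azoles, imazalil minus fenbuconazole was positive for 15 of 20 cytosolic enzymes with a median of 0.070, and MARS1 differed by 0.20 (95% interval 0.0054 to 0.39, adjusted p = 1.00) and WARS1 by 0.12 (95% interval -0.082 to 0.33, adjusted p = 1.00). At an unadjusted p under 0.05 there were 2 members (LARS2 and WARS1) beside 4.86% of all probe sets, 0 beside 4.5% and 1 (MARS1) beside 4.84%, in the order of the pairs above. The median 95% interval of a member reached 0.20 on either side of its estimate, so equal responses were not shown either.

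Below 10 µM the cytosolic medians of all 3 chemicals lay within 0.05 of 0. For fenbuconazole the cytosolic median against DMSO lay between -0.024 (0.003 µM) and 0.040 (3 µM) over the 8 lower concentrations and reached -0.11 at 10 µM alone. Its mitochondrial median lay between -0.052 and 0.021 over the same concentrations. For imazalil the cytosolic median was -0.014 at 1 µM, -0.042 at 3 µM and -0.046 at 10 µM, and for 2,4-D it was 0.0070, 0.011 and -0.0092. As a mean over the 20 genes after centring each on its set, the fenbuconazole arrays at 10 µM lay at -0.11 to -0.043 and those in DMSO at -0.034 to 0.041. The arrays of replicate 3 at 0.3 µM (-0.067) and at 1 µM (-0.048) also lay within the range of the 10 µM arrays. The F test over all 9 concentrations passed 0 of 37 members for fenbuconazole, imazalil and 2,4-D (0%, 0% and 0% of all probe sets), with 1, 0 and 0 members at an unadjusted p under 0.05, beside 4.73%, 3.38% and 3.77%. The 1 member, named after its values were seen, was FARSA.

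**Figure D3:**
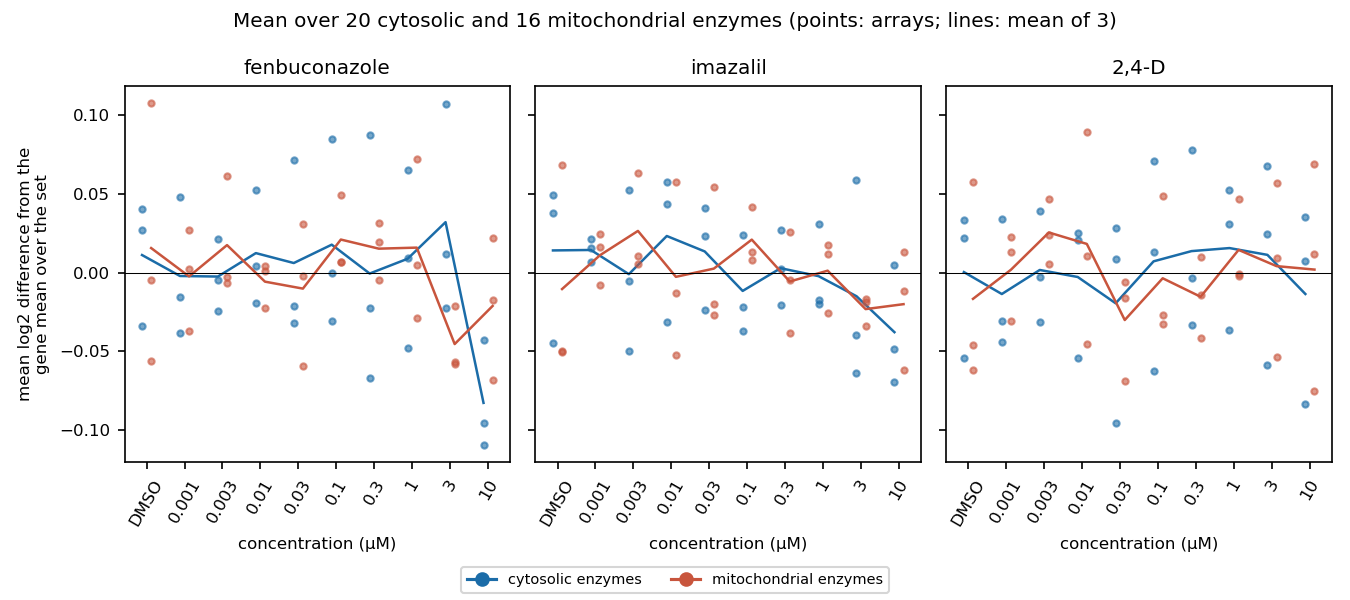
Mean over the 20 cytosolic and the 16 mitochondrial enzymes of the log2 difference from each gene's mean over its set, by concentration in µM with DMSO at the left; points are arrays and lines join means of 3. The cytosolic mean of fenbuconazole is lowest at 10 µM (-0.083) and that of 2,4-D crosses 0 several times.

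Members passed the test between replicate numbers, which no comparison of concentrations or chemicals gave. Over the 27 treated arrays of a set, with concentration in the model, most cytosolic enzymes were higher in replicate 2 than in replicate 3. Replicate 2 minus replicate 3 was positive for 16, 16 and 17 of 20 cytosolic enzymes in the fenbuconazole, imazalil and 2,4-D sets, with medians of 0.090, 0.061 and 0.092. Mitochondrial enzymes were positive in 8, 10 and 11 of 16, with medians of 0.0097, 0.016 and 0.019, and over 1 probe set per gene the medians were 0.0034, 0.00050 and 0.012. Replicate 2 minus replicate 1 gave cytosolic medians of 0.072, 0.065 and 0.034 and mitochondrial medians of -0.014, -0.026 and -0.027. Of the 20 cytosolic enzymes, 12 were highest in replicate 2 in all 3 sets, against 0 of 16 mitochondrial enzymes, and 6 of 20 were lowest in replicate 3 in all 3 sets, against 3 of 16. CARS1, GARS1, NARS1, SARS1 and YARS1, which charge cysteine, glycine, asparagine, serine and tyrosine tRNA, met both. Each replicate number has 1 range of run numbers that spans all 3 sets, so the same order in 3 sets is not 3 separate readings. The share of all genes with such an order was not counted. The 13 cytosolic enzymes outside the multi-synthetase complex had medians for replicate 2 minus replicate 3 of 0.10, 0.093 and 0.14, against 0.040, 0.038 and 0.049 for the 7 inside it. NARS1 had 0.077, 0.093 and 0.058 and SARS1 had 0.13, 0.13 and 0.14 for this difference, with no call in any set.

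The F test over the numbers in limma passed 2 of 37 members in the fenbuconazole set (0.797% of all probe sets), 2 in the imazalil set (1.85%) and 7 in the 2,4-D set (2.88%), which is 5.41%, 5.41% and 18.9% of members. At an unadjusted p under 0.05 there were 9, 13 and 16 of 37 members, beside 12.1%, 16.4% and 18% of all probe sets. CARS1 and GARS1 passed in all 3 sets, AARS1, MARS1, WARS1 and YARS1 in the 2,4-D set, and VARS2 was the only mitochondrial enzyme to pass. The arrays of 1 number share whatever set the numbers apart, so these p-values measure the spread between arrays and not between batches. Run numbers in the labels did not overlap between replicate numbers, and the cells of a number and its array run cannot be told apart.

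CARS1 averaged 10.40 ± 0.080 for replicate 2, 10.20 ± 0.092 for replicate 1 and 10.13 ± 0.091 for replicate 3 in the fenbuconazole set (SD, n = 9 each; adjusted p = 0.00619). It averaged 10.83 ± 0.071 for replicate 2, 10.65 ± 0.074 for replicate 1 and 10.59 ± 0.064 for replicate 3 in the imazalil set (adjusted p = 0.00441). In the 2,4-D set it averaged 10.91 ± 0.042 for replicate 2, 10.78 ± 0.059 for replicate 1 and 10.69 ± 0.046 for replicate 3 (adjusted p = 0.0024). All 9 values of replicate 2 were above all 9 of replicate 3 in each set, with differences of 0.27, 0.25 and 0.22. A further CARS1 probe set also passed in all 3 sets, with F of 31.2, 22.4 and 53.5. Results of the remaining CARS1 probe sets, which also read dimmer than the one used, are not given here.

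GARS1 averaged 11.06 ± 0.11 for replicate 2, 10.88 ± 0.12 for replicate 1 and 10.80 ± 0.091 for replicate 3 in the fenbuconazole set (SD, n = 9 each; adjusted p = 0.0301). The replicate 2 values had a lowest, median and highest of 10.84, 11.08 and 11.19, against 10.67, 10.79 and 11.003 for replicate 3, so a few arrays overlap. Replicate 2 exceeded replicate 3 by 0.26, 0.18 and 0.26 in the 3 sets, with adjusted p = 0.0384 for imazalil and 0.00608 for 2,4-D. AARS1, the alanine enzyme, averaged 9.88 ± 0.080 for replicate 2, 9.68 ± 0.065 for replicate 1 and 9.61 ± 0.080 for replicate 3 in the 2,4-D set (adjusted p = 0.00101) and exceeded replicate 3 in replicate 2 by 0.13 and 0.12 in the fenbuconazole and imazalil sets, where it did not pass. YARS1, the tyrosine enzyme, averaged 10.92 ± 0.092 for replicate 2, 10.84 ± 0.045 for replicate 1 and 10.72 ± 0.051 for replicate 3 in the 2,4-D set (adjusted p = 0.0216). WARS1 and MARS1 passed in the 2,4-D set alone, with replicate 2 above replicate 3 by 0.21 (adjusted p = 0.0187) and 0.15 (adjusted p = 0.0252). In the fenbuconazole and imazalil sets WARS1 showed 0.12 and 0.11 for the same difference, and whether the sets differ in it was not tested.

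The orders among the mitochondrial enzymes were mixed. VARS2 averaged 8.31 ± 0.042 for replicate 2, 8.45 ± 0.069 for replicate 1 and 8.31 ± 0.068 for replicate 3 in the 2,4-D set (adjusted p = 0.042), so replicate 1 stood high, and it lost its call when arrays were set to equal medians. MARS2 averaged 4.87 ± 0.21 for replicate 2, 5.03 ± 0.30 for replicate 1 and 5.23 ± 0.25 for replicate 3 in the fenbuconazole set (adjusted p = 0.20), with replicate 2 lowest there and in the imazalil (5.86 in replicate 2) and 2,4-D sets (5.91). LARS2 stood in the order of the cytosolic enzymes above and averaged 7.42 ± 0.10 for replicate 2, 7.36 ± 0.046 for replicate 1 and 7.24 ± 0.14 for replicate 3 in the 2,4-D set (adjusted p = 0.11), and TARS2, for threonine, 6.98 ± 0.13 for replicate 2, 7.0 ± 0.12 for replicate 1 and 6.82 ± 0.10 for replicate 3 (adjusted p = 0.17). AIMP1 differed between replicates 2 and 3 by -0.058, 0.035 and -0.034 in the 3 sets, EPRS1 by -0.020, -0.094 and -0.079, KARS1 by 0.0097, 0.030 and 0.047, and WARS2 by -0.0011, -0.16 and -0.099.

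**Figure D4:**
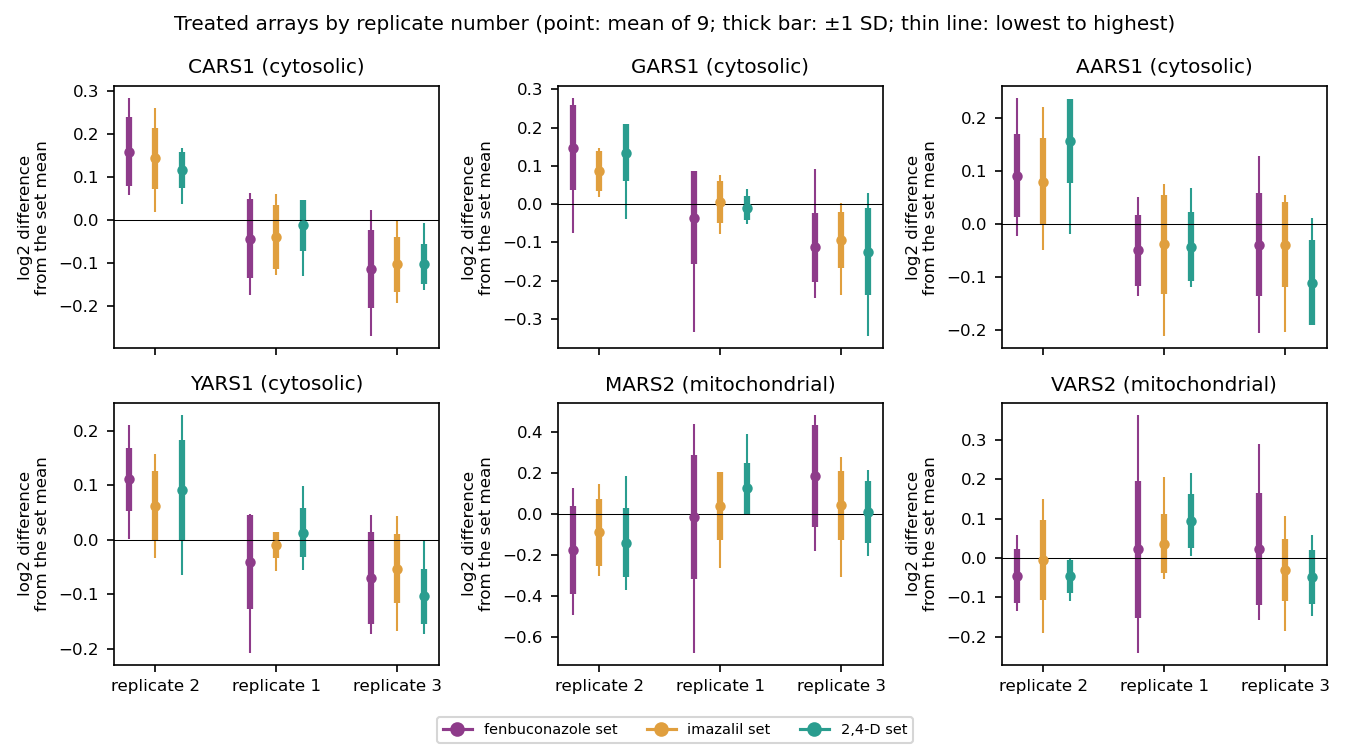
Log2 difference from the set mean of 4 cytosolic and 2 mitochondrial enzymes by replicate number, over the 9 treated arrays of each number in each set (point, mean; thick bar, 1 SD; thin line, lowest to highest). CARS1, GARS1, AARS1 and YARS1 are highest in replicate 2 in all 3 sets, and MARS2 is lowest there.

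The DMSO arrays, which did not enter these fits, were read in the same way. Replicate 2 minus replicate 3 had a cytosolic median of 0.077 in the fenbuconazole set and 0.076 in the imazalil set, whose control arrays are those of 2,4-D. The mitochondrial medians were 0.053 (9 of 16 higher, against 13 of 20 cytosolic) and -0.017 (7 of 16, against 15 of 20), so in the fenbuconazole set the compartments lay close together. CARS1 differed by 0.34 and 0.20 and GARS1 by 0.30 and 0.30. Replicate 2 minus replicate 1 had the other sign in the cytosolic median of the DMSO arrays, at -0.030 and -0.028, although CARS1 stayed positive at 0.14 and 0.084. With 1 array per number this carries no test, and since the labels give the fenbuconazole controls the run numbers of the other controls, the sets are not counted as separate readings. With only the arrays of 2 numbers in the fit, fewer members passed. Without replicate 1, 1, 1 and 3 members passed in the fenbuconazole, imazalil and 2,4-D sets, beside 0.546%, 0.958% and 0.938% of all probe sets, and CARS1 was the 1 member in each of the first pair of sets. Without replicate 3, 0 members passed in each set, beside 0.399%, 0.646% and 0.52% of all probe sets. Without replicate 2, 0 members passed in each set as well, but few probe sets of any kind did, at 0%, 0.00366% and 0.00916%.

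The 23 other genes of the amino acid response were also mostly higher in replicate 2 than in replicate 3. Replicate 2 minus replicate 3 was positive for 21, 22 and 23 of 23, with medians of 0.20, 0.18 and 0.25. The F test over numbers passed 6, 12 and 13 of them after adjustment, beside 0.797%, 1.85% and 2.88% of all probe sets. ASNS had 0.42, 0.31 and 0.37 (adjusted p = 0.000984, 0.000503 and 2.15e-05), and TRIB3 had 0.52, 0.48 and 0.51. ATF4 itself had 0.14, 0.14 and 0.13 and did not pass (adjusted p = 0.0795, 0.10 and 0.0727). Within the family, the 12 cytosolic enzymes known as ATF4 targets had medians of 0.12, 0.10 and 0.14, against 0.029, 0.027 and 0.039 for the other 8. All 6 cytosolic enzymes that passed were of the 12, and AARS1, MARS1, WARS1 and YARS1 among them passed in the 2,4-D set alone. The list was chosen with earlier results of these data known, and a part of ATF4 was not tested. Among 16 partners of tRNA charging, such as the amidotransferase subunit QRSL1 and the proofreading enzyme DTD1, the medians were -0.0087, -0.0084 and 0.0090. QRSL1 and DTD1 were the 2 that passed, in the imazalil set, beside 1.85% of all probe sets. Of 7 genes of eIF2, its kinases and its phosphatases, 0 passed in any set (limma; smallest adjusted p = 0.10), and 0, 1 and 1 of them had an unadjusted p under 0.05 in the fenbuconazole, imazalil and 2,4-D sets, which is near the 12.1%, 16.4% and 18% of all probe sets.

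Markers of other cells were read beside these numbers. The MCF7 list, as a mean over 5 genes, lay at 3.58 to 3.87 in replicate 2, 3.72 to 3.99 in replicate 1 and 3.70 to 4.03 in replicate 3 of the 2,4-D set. Of its 5 genes only GATA3 passed over the numbers, in the imazalil and 2,4-D sets, with replicate 2 minus replicate 3 at -0.43 and -0.47, opposite in sign to the cytosolic enzymes, and its part in their difference was not tested. The estrogen target TFF1 had means of 2.74 and 2.99 in these sets. None of 6 Ewing sarcoma or 5 hepatocyte markers passed in any set, and in the 2,4-D set the Ewing sarcoma list lay at 10.50 to 10.59, 10.54 to 10.60 and 10.48 to 10.60 in replicates 2, 1 and 3. Mitochondrial probe sets read dimmer than cytosolic ones, with median values of 9.61 for cytosolic and 6.35 for mitochondrial members in the fenbuconazole set, and the median SE of a 10 µM difference there was 0.108 and 0.113. The part of signal level in the difference between the compartments was not tested.

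**Figure D5:**
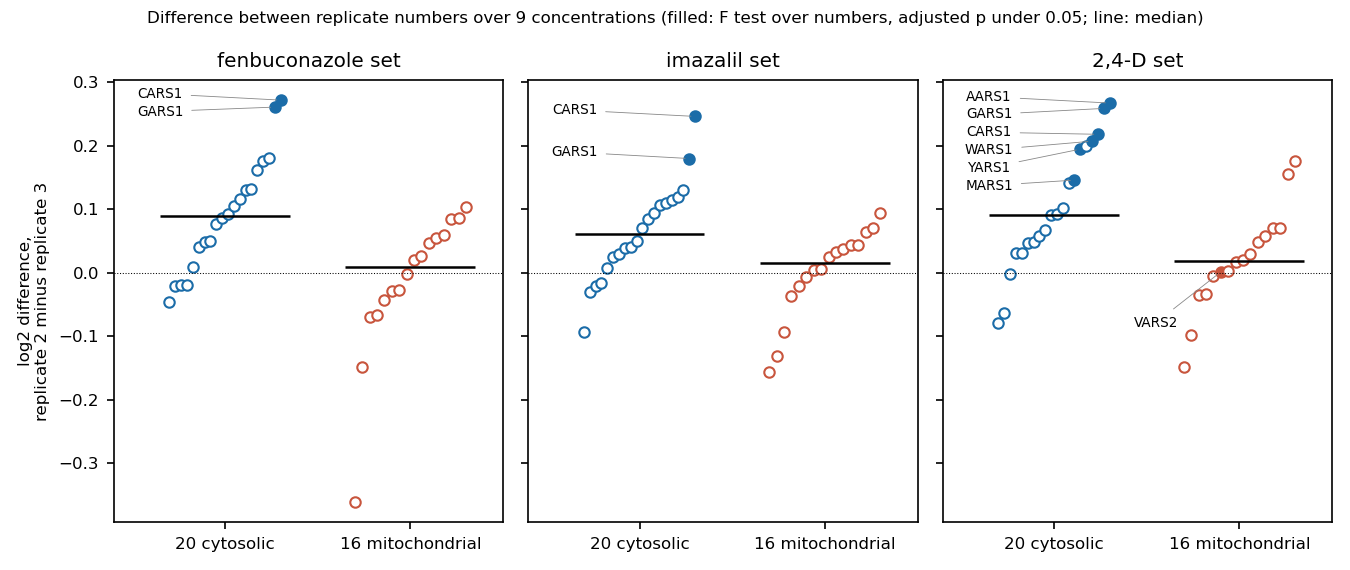
Log2 difference, replicate 2 minus replicate 3 over the 9 treated concentrations, of 20 cytosolic and 16 mitochondrial enzymes in each set, sorted by size, with filled points for members whose F test over the numbers passed and a line at the median. The cytosolic medians are 0.090, 0.061 and 0.092, and the mitochondrial medians lie near 0.

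Most of the 23 amino acid response genes also read lower at 10 µM of either azole than in DMSO. For fenbuconazole 22 of 23 were lower with a median of -0.21, for imazalil 21 with -0.15 and for 2,4-D 14 with -0.044, and 0 passed in any of the 3, with 9, 4 and 0 at an unadjusted p under 0.05, beside 7%, 4.75% and 3.85% of all probe sets. ASNS had 9.81, 9.80 and 9.80 in fenbuconazole arrays and 10.29, 10.38 and 10.06 in DMSO arrays and differed by -0.44 ± 0.17 (SE), adjusted p = 0.60, and TRIB3 had 7.005, 7.30 and 7.0 in fenbuconazole arrays and 7.87, 8.10 and 7.34 in DMSO arrays and differed by -0.67 ± 0.22 (SE), adjusted p = 0.52. Both were without overlap. ATF4 differed by -0.069 ± 0.096 (SE), adjusted p = 0.93. For imazalil, ASNS had 10.52, 10.65 and 10.46 in imazalil arrays and 10.86, 10.95 and 10.67 in DMSO arrays and differed by -0.28 ± 0.13 (SE), adjusted p = 1.00, and for 2,4-D it differed by -0.063 ± 0.14 (SE), adjusted p = 1.00. The synthetases that are ATF4 targets had a median of -0.12 at 10 µM fenbuconazole, against -0.21 for the 23 genes. The partners of tRNA charging had medians of 0.0046, 0.015 and -0.0014 for fenbuconazole, imazalil and 2,4-D.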

How the data were processed

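Total RNA from A673 cells was hybridised by the authors to Affymetrix HT HG-U133+ PM arrays. The deposited values are log2 expression per probe set. Per the labels, the authors applied RMA in Partek (versions are not given in the sources used here) to the 30 columns of 1 chemical at a time, so every difference was first taken within a set. The deposited table held 54715 probe sets, of which 102 control probe sets were left out and 54613 tested. By the GEO platform annotation, 40914 of these had 1 symbol, 864 had several and 12835 had none; 3 probe sets shared between a member and another gene were left out. All 90 columns were matched to samples by name.

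Groups and replicate numbers came from the labels. Models were fitted with limma 3.58.1 in R 4.3.3 (lmFit, contrasts.fit, eBayes, Benjamini-Hochberg over all tested probe sets, threshold 0.05). The fits, over the 30 columns of a set unless stated, were 10 µM against DMSO, 10 µM against the mean of the other 8 concentrations, an F test over 9 concentrations, an F test over replicate numbers in the 27 treated columns with concentration in the model, and, over all 90 columns, the difference of differences for 3 pairs of chemicals. In the last fit the control columns that imazalil and 2,4-D share counted as separate columns, which touches its estimate of spread but no contrast. The study's methods name limma contrasts against the vehicle without a batch term. Scripts were tested on simulated data. Lists of genes are described by counts and medians, without a test.

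Per-array values are given for the members with the largest differences at 10 µM against DMSO (6 for fenbuconazole, 4 for imazalil, 2 for 2,4-D), and for replicate numbers the means of the 4 cytosolic and 4 mitochondrial members with the largest mean F over the sets, with EPRS1, GARS1, KARS1, WARS1, WARS2, AIMP1, ATF4, ASNS and TRIB3 given throughout. The members and lists were chosen with earlier results of these data known. The number of arrays limits the precision. Alternatives were the replicate block, a trended and robust eBayes, dim probe sets left out, equal array medians, all probe sets of a gene, other references and each replicate number left out.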

Additional observations from a re-analysis of the deposited data

How the results depend on the processing

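No member passed at 10 µM, over the 9 concentrations or between chemicals under any of the 93 fits run for these 12 comparisons, where the smallest adjusted p of a member was 0.22. With the replicate number as a block, 0 members passed, while calls among all probe sets were 4, 2 and 0 against DMSO and 21, 11 and 1 against the other 8 concentrations for fenbuconazole, imazalil and 2,4-D. The fits reported have no block, as the study's methods name none for these arrays and the labels do not say what a number marks. Same-numbered arrays did share differences, in that 25, 30 and 30 of 30 arrays correlated best, on average, with their own number, though over pairs of arrays the correlations of deviations averaged 0.042, 0.069 and 0.078 and some were below 0. Over replicate numbers, a trended and robust eBayes passed 4 members in the fenbuconazole set and 5 in the imazalil set, with 854 and 1929 of 54613 probe sets against 435 and 1008 as reported, and leaving out dim probe sets passed 4 in the fenbuconazole set, with 778 of 27307 probe sets; with 1 number left out and so fewer arrays, 0 to 1, 0 to 1 and 0 to 3 members passed. With the mean of all probe sets of a gene, the fenbuconazole medians were -0.051 for cytosolic and -0.088 for mitochondrial enzymes, and with 1 replicate left out the mitochondrial median ranged over -0.12 to 0.028 and the cytosolic one over -0.15 to -0.064. Against the other 8 concentrations FARSA at 10 µM fenbuconazole turned to 0.020 and FARS2 at 10 µM 2,4-D to -0.11, and FARS2 against DMSO ranged over -0.022 to 0.21 with 1 replicate left out, the lowest being without replicate 2; the cause was not tested. With 3 arrays a group and SEs near 0.1, no difference of a member at 10 µM passed after adjustment. Whether true differences of that size could have been detected was not tested.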
